A study of Mus musculus with 6 samples.

Results

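Skeletal muscle genes were followed through 6 mouse mammary tumours. The set holds 50 genes of the contractile apparatus of skeletal muscle, its calcium handling, its energy supply and its regulators, listed by name. The array carries a probe set of its own for 46 of them, 66 probe sets in all, among 12393 such genes. Mybpc2 and Mybpc1, which encode the fast and slow myosin-binding proteins C, Neb, which encodes nebulin, and Ampd1, the muscle AMP deaminase, have no such probe set in the annotation used. The members were split by role into 12 fast and 7 slow sarcomere genes, 1 perinatal myosin, 10 sarcomere genes shared by fibre types, 8 genes of calcium handling, 9 of energy supply and 3 regulators.

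All 6 were grown from 4T1, a mammary carcinoma cell line of the mouse. The control group comprised 3 tumours of Control 4T1 cells, and the vector those cells carried, if any, is not stated in the labels. The Bptf KD group comprised 3 tumours of 4T1 cells in which short hairpin RNAs, delivered by the MMLV retrovirus, had knocked down Bptf, the largest subunit of the chromatin remodelling complex NURF. Every tumour came from 10000 cells put into the fourth mammary fat pad of an NSG mouse, labelled Ifrg2r -/-, and was taken after 21 days. NSG mice have no mature lymphocytes and still have a stroma of their own, muscle included. The labels do not state the age of the mice, the number of hairpins or whether the Bptf KD cells were 1 clone. Necrotic areas were dissected away where present, while no step of the labels' protocols removes muscle. Each tumour was measured on 1 array, from 500 ng of total RNA, so that a single tumour has no replicate of its own. The 3 tumours of a group are biological replicates per the labels, which do not say whether each grew in a mouse of its own.

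Skeletal muscle contracts when myosin of the thick filament pulls on actin of the thin filament inside the sarcomere. Calcium released from the sarcoplasmic reticulum by the ryanodine receptor binds troponin C, troponin and tropomyosin then uncover actin, and the pump SERCA1 takes the calcium back. Fast and slow fibres build the same machine from different genes: each has its own myosin heavy and light chains and its own set of the 3 troponin subunits. Mature muscle fibres are not a product of mammary epithelium. The mouse mammary glands lie under the skin, next to the thin panniculus muscle and above the muscles of the body wall.

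Among the whole series' facts that touch these genes, the median log2 value of the arrays lay between 7.60 and 7.70. Bptf, the target of the hairpins, checks the labels. On its brightest probe set controls 1, 2 and 3 read 10.69, 9.77 and 10.59 in log2, and Bptf KD 1, 2 and 3 read 9.60, 9.56 and 9.99. The difference of -0.63 (SE 0.27) did not pass (limma adjusted p = 0.371). On the other 3 probe sets control 2 lay below every Bptf KD tumour, against its label, and it is called the tumour labelled control 2 here. That tumour also stood apart over the genes as a whole: the share of genes 2-fold or more away from the other tumours of its group was 8.67%, and in the other 5 tumours it was 0.443% to 2.51%. Its log2 difference between the 3-prime and 5-prime probe sets of Actb was 1.23, the highest of the 6, the others lying from 0.76 to 1.05. Results that rest on it are given with and without it.

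Promoters are shown for members whose levels moved together over the tumours, because that shared pattern is the main feature of the data. The windows printed are the 250 bases before the RefSeq start (build GRCm38.p6), 5′ to 3′ on the gene's strand. Capitals mark matches to the E-box CAGCTG, a site type bound by MyoD family factors, to TATAAA, to the MEF2 motif and to the CArG box of serum response factor, searched on both strands. The actin of the thin filament (Acta1), muscle creatine kinase (Ckm), the fast regulatory light chain (Mylpf), the fast IIb myosin heavy chain (Myh4) and the slow troponin C (Tnnc1) read as follows.
Acta1, chr8:123894776-123895025, minus strand: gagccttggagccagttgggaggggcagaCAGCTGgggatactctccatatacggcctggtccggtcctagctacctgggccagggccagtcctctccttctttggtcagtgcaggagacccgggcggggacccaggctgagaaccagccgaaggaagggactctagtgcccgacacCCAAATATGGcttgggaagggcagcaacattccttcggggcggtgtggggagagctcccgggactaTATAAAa
Ckm, chr7:19410844-19411093, plus strand: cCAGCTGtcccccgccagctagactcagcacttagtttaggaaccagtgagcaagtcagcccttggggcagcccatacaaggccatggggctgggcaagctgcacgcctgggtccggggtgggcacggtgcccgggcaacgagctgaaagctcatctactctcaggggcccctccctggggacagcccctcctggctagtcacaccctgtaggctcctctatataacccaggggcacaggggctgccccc
Mylpf, chr7:127211358-127211607, plus strand: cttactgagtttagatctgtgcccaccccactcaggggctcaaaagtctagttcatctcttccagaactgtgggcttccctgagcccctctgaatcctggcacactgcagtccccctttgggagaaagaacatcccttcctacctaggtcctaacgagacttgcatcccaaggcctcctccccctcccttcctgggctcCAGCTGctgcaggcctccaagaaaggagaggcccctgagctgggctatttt
Myh4, chr11:67237562-67237811, plus strand: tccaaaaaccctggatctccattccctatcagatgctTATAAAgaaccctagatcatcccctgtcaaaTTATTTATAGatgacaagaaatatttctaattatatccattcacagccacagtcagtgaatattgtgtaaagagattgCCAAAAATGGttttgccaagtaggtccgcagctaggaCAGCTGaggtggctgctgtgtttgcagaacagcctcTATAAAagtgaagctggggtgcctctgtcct
Tnnc1, chr14:31208062-31208311, plus strand: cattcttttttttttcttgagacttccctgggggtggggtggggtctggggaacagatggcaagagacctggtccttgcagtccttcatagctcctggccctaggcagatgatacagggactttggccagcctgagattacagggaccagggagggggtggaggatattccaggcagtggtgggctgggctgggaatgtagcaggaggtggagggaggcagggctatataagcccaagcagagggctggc

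Acta1 held an E-box beginning 221 bases before the start, a CArG box at 73 and TATAAA at 7. Mylpf had an E-box beginning at 51 bases and Ckm at 249. The Myh4 promoter, which was added after the matches were seen, held all 4 motifs, with an E-box at 67, a CArG box at 104, a MEF2 motif at 182 and TATAAA at 213 and 31. In it a further TATAAA, on the opposite strand at 179, lies within the MEF2 match. None of the 4 motifs occurred in the Tnnc1 window. The slow gene Myl2, planned but not printed, has alternative starts. Before 1 of them it held an E-box at 130 and, on the opposite strand, TATAAA at 216. At another, its E-box began 34 bases after the start. In windows that reach past the start, the slow Tnni1 held an E-box and the fast Tnnc2 none of the 4 motifs. In these windows the E-box, TATAAA and the CArG box each occurred in both fast and slow genes. The MEF2 motif occurred in the fast Myh1 and Myh4 and in no slow gene. Whether any motif parts fast from slow genes was not tested. RefSeq promoters of 300 bases, 50 of them after the start, were at hand for 35 of the 50 members, 43 windows in all, some of them alternative starts of 1 gene. The E-box was present in 20 of the 43, or 46.5%, against 16.3% of all 32851 windows. For MEF2 the shares were 18.6% and 3.19%, for the CArG box 11.6% and 1.63%, and for TATAAA 20.9% and 13.6%. A match is a string of letters and not a bound site.

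Muscle transcripts differed widely between the tumours, within both groups. Of the 34 members whose mean lay above a dim level of 6.09, and which were tested, 28 ranged over at least 2 log2 units across the 6 tumours, against 3.04% of all genes tested, and 13 ranged over at least 5. Their median range was 3.75, or 13.5-fold, against 0.62, or 1.54-fold, over the 9249 genes tested. The tumour labelled control 2 was the highest of the 6 for 33 of the 34, against 28.3% of genes. The mean used for the filter includes that tumour, so a member can be tested because it is high there. Of the 46 members with a probe set, before the filter, 43 were highest there. For 19 of the 34 the order began with the tumour labelled control 2, then Bptf KD 1, then control 1, against 0.897% of genes. Control 3 or Bptf KD 2 was the lowest for 27, against 27.3% of genes. The high and the low end of the members' levels each held tumours of both groups.

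The mean log2 level of the 34 members was 10.4 in the tumour labelled control 2, 8.51 in Bptf KD 1, 7.93 in control 1, 7.06 in Bptf KD 3, 6.43 in control 3 and 6.39 in Bptf KD 2. Controls alone spanned the scale nearly from end to end, through the tumour labelled control 2. Without that tumour the controls read 6.43 and 7.93, while the Bptf KD tumours ran from 6.39 to 8.51. Control 3 and Bptf KD 2, of opposite groups, lay at the foot of the scale and differed by less than the gap between any other neighbours. Values have no detection call, so the dim level, below which the lowest 30% of probe set means fall, serves as a guide to background. Of the 46 members with a probe set, 43 lay above it in the tumour labelled control 2, 41 in Bptf KD 1, 31 in control 1, 25 in Bptf KD 3, 21 in Bptf KD 2 and 19 in control 3. In a piece of tissue, fewer muscle fibres and less RNA per fibre cannot be told apart. Without the tumour labelled control 2 (an order computed after the data were seen), Bptf KD 1 was the highest of 5 for 26 of the 34 and control 1 for 5, where Bptf KD 1 was highest for 13.0% of genes tested. The median range over those 5 tumours was 1.57, against 0.46 for the genes tested.

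**Figure D1:**
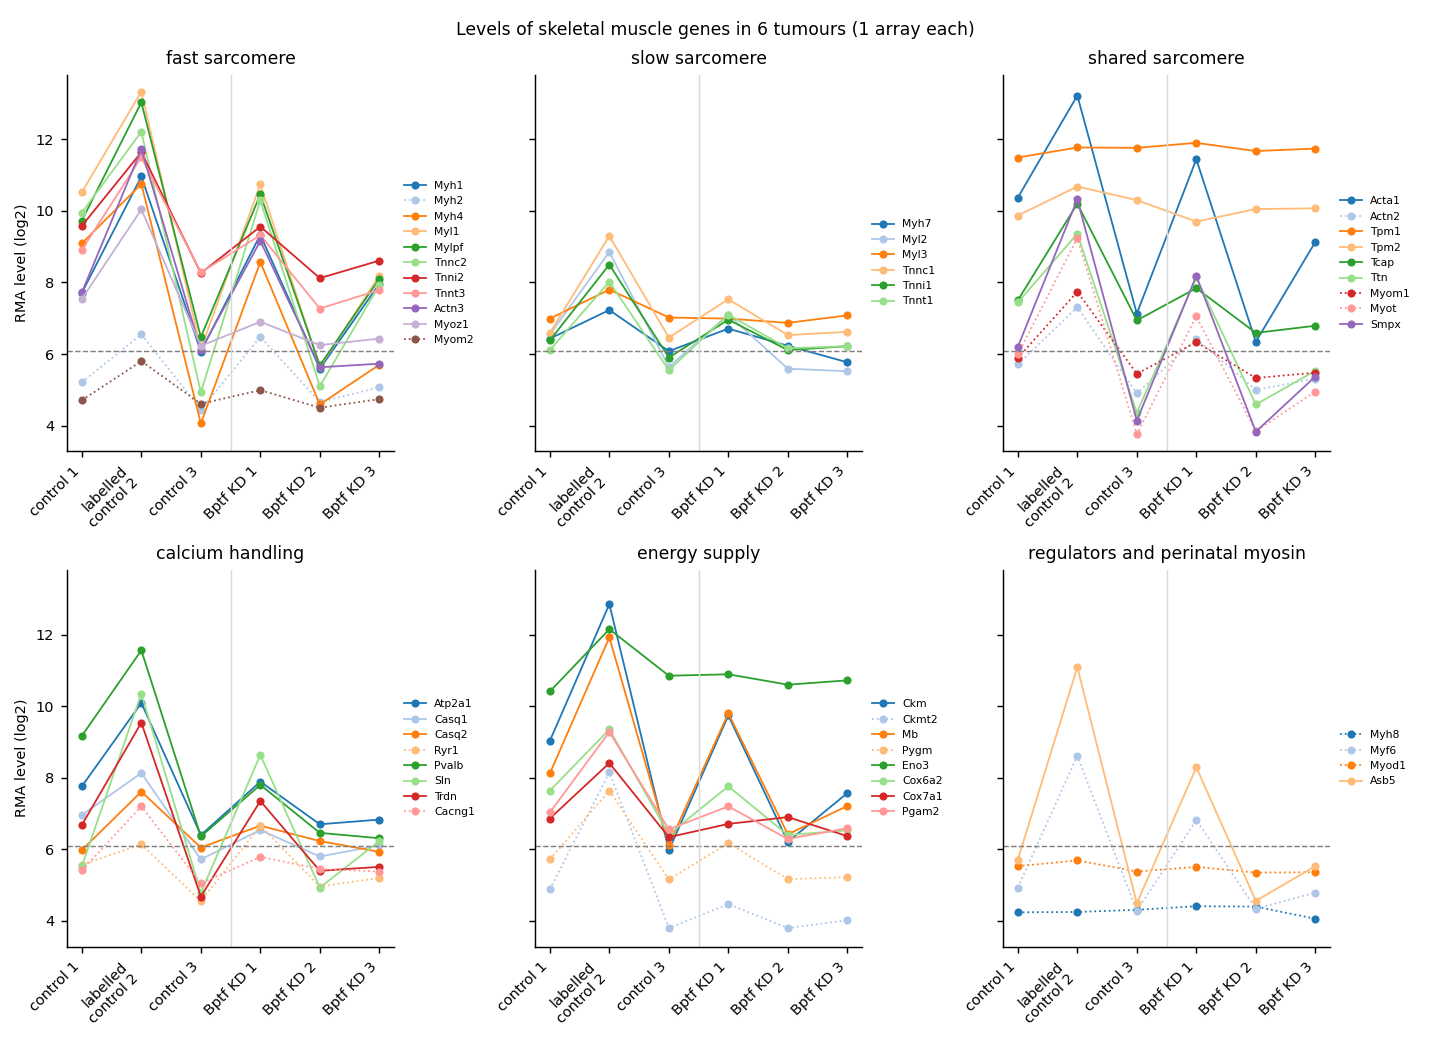
RMA level (log2) of each member in each tumour, 1 point per tumour and 1 line per gene, by role, with the controls left of the grey line and the Bptf KD tumours right of it. The dashed line is the dim level of 6.09 and dotted lines are members whose mean lies below it. Most lines peak at the tumour labelled control 2, peak again at Bptf KD 1 and are lowest in control 3 or Bptf KD 2.

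Genes of the fast sarcomere varied widely, with the largest median range of the 5 role groups that have more than 1 tested gene. Of 12 listed, 11 had a probe set and 9 were tested, with ranges from 3.52 to 7.69 and a median of 6.09 (68.1-fold). Myl1, the essential light chain of fast myosin, read 10.52, 13.33 and 6.14 in log2 in the controls, given here and below in the order 1, 2 and 3, and 10.74, 5.64 and 8.19 in the Bptf KD tumours, a range of 206-fold. Mylpf, the fast regulatory light chain, read 9.73, 13.03 and 6.47 in the controls and 10.46, 5.68 and 8.10 in the Bptf KD tumours. In both genes each group held a tumour near background and a tumour well above it.

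Tnnc2, the fast troponin C that binds the calcium, had levels of 9.95, 12.21 and 4.93 in the controls against 10.29, 5.10 and 7.92 in the Bptf KD tumours. Myh4, the myosin heavy chain of the fastest fibres, had 9.09, 10.75 and 4.06 against 8.57, 4.59 and 5.70. Control 1 thus lay above Bptf KD 1 for Myh4 and a little below it for Tnnc2, Mylpf and Myl1. Of the tested fast genes Tnni2, the fast inhibitory troponin subunit, had the smallest range over the 6 tumours, at 9.58, 11.64 and 8.26 against 9.56, 8.12 and 8.61. Myh1, the IIx heavy chain, Actn3, the fast alpha-actinin of the Z-disc, Tnnt3, the fast troponin T, and Myoz1, a Z-disc protein that binds calcineurin, ranged over 5.37, 6.09, 4.23 and 3.81. Myh2, the IIa heavy chain, and Myom2, an M-band protein, were not tested because their means lay below the dim level. Myh2 still read 6.55 in the tumour labelled control 2 and 6.48 in Bptf KD 1, against 4.45 to 5.21 elsewhere.

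Slow sarcomere genes followed the same tumours over a smaller scale. All 6 of the slow genes with a probe set were tested, with ranges from 0.93 to 3.33 and a median of 2.54 (5.80-fold). Over the 6 tumours the largest slow range was thus below the smallest fast one among the tested genes. Without the tumour labelled control 2 they overlapped, with Myl2 and Tnnt1 of the slow genes at 1.58 and 1.55 and Myoz1 and Tnni2 of the fast genes at 1.31 and 1.46. The untested fast genes Myom2 and Myh2 ranged over 1.30 and 2.10 in the 6 tumours. Myl2, the slow and ventricular regulatory light chain, had log2 levels of 6.55, 8.85 and 5.64 in the controls and 7.10, 5.59 and 5.52 in the Bptf KD tumours. Tnnc1, the slow and cardiac troponin C, read 6.59, 9.30 and 6.46 against 7.53, 6.53 and 6.62. Outside the tumour labelled control 2 and Bptf KD 1 these genes stayed close to the dim level. How far background sets their lower end is not known.

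Tnni1 and Tnnt1, the slow troponins I and T, had the next widest ranges. Tnni1 levels were 6.38, 8.50 and 5.90 against 6.96, 6.11 and 6.22, and those of Tnnt1 were 6.11, 8.02 and 5.55 against 7.10, 6.16 and 6.22. Myh7, the slow myosin heavy chain, ranged over 1.46. Myl3, the slow essential light chain, ranged least, at 6.99, 7.80 and 7.02 against 6.99, 6.87 and 7.08. A dimmer Myl3 probe set with the suffix s_at, which marks probes shared with other transcripts, ranged over 2.55. Of the tested slow genes, 6 of 6 were highest in the tumour labelled control 2, as were 9 of 9 fast genes.

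Set within each gene, the fast program differed more between the same tumours than the slow one. From the mean of controls 1 and 3 to the tumour labelled control 2 the median difference was 4.18 for the fast and 2.28 for the slow genes. From Bptf KD 2 to Bptf KD 1 it was 3.74 for the fast and 0.90 for the slow genes, and from Bptf KD 2 to Bptf KD 3 it was 1.11 and 0.08. Over all genes tested these medians were 0.03, -0.02 and -0.01. The first of these sets 1 tumour against the mean of 2 and the others set 1 tumour against 1, and none has a test. The slow genes lay nearer the dim level in most tumours, and its part in their smaller differences was not tested.

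**Figure D2:**
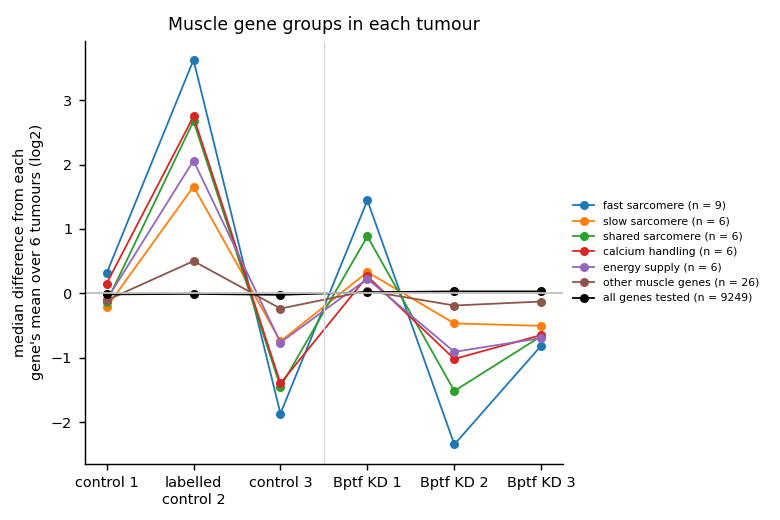
Median over the tested genes of each group of a tumour's difference (log2) from the gene's own mean over the 6 tumours, 1 point per tumour, for the role groups, the other muscle genes and all genes tested. Fast genes run from -2.35 in Bptf KD 2 to 3.62 in the tumour labelled control 2, slow genes from -0.74 to 1.66, and all genes tested stay between -0.02 and 0.03.

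Myh8, the perinatal myosin heavy chain, which is made in developing and regenerating fibres, stayed between 4.06 and 4.41 in the 6 tumours, below the dim level. Its highest tumour was Bptf KD 1 and it did not follow the other members. Myh3, the embryonic heavy chain, lay between 4.87 and 5.24, and the satellite cell factors Pax7 and Myf5 between 3.96 and 4.41 and between 3.20 and 3.58. Of the 7 genes of the myoblast and regeneration list with a probe set, 5 had means below the dim level. Myog, which drives myoblast differentiation and is also on that list, did vary. It read 7.00 in the tumour labelled control 2 and 6.50 in Bptf KD 1, against 4.57 to 5.16 in the others.

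Sarcomere genes shared by fibre types fell into a part that followed the tumours and a part that did not. Acta1, the actin of the skeletal thin filament, had log2 levels of 10.37, 13.22 and 7.13 in the controls and 11.44, 6.34 and 9.13 in the Bptf KD tumours. Smpx, a small muscle protein, read 6.20, 10.32 and 4.14 against 8.18, 3.83 and 5.37. Ttn, the giant spring protein titin, read 7.44, 9.36 and 4.36 against 8.14, 4.59 and 5.53. Each of these 3 was highest in the tumour labelled control 2, second in Bptf KD 1 and lowest in control 3 or Bptf KD 2. Tcap, which caps titin at the Z-disc, had levels of 7.50, 10.20 and 6.94 against 7.84, 6.59 and 6.79. Actn2 (alpha-actinin of the Z-disc), Myom1 (an M-band protein) and Myot (myotilin) had means below the dim level and ranged over 2.41, 2.41 and 5.48.

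The tropomyosins Tpm1 and Tpm2 are made in many cell types, smooth muscle and fibroblasts among them, with splice forms of their own in muscle. The brightest Tpm1 probe set had levels of 11.49, 11.77 and 11.76 against 11.90, 11.67 and 11.74, and Tpm1 was the 1 tested member not highest in the tumour labelled control 2. Another Tpm1 probe set, nearly as bright, did follow the muscle order at its top, with 12.97 in the tumour labelled control 2, 11.69 in Bptf KD 1 and 11.22 to 11.42 in the others. The remaining one was lowest, at 6.13, in the tumour labelled control 2. Tpm2 split in the same way. Its brightest probe set ranged over 0.98, with Bptf KD 1 the lowest at 9.70. A dimmer one read 10.27 in the tumour labelled control 2 and 8.23 in Bptf KD 1, against 6.44 to 7.34 elsewhere. Its suffix x_at marks probes that may also bind similar sequences.

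Of the 66 probe sets of the members, 60 were highest in the tumour labelled control 2. In all, 10 members have several probe sets. The Myh1 probe set used carries the suffix x_at, and another of Myh1, without it, ranged over 5.31. For Myh1, Sln, Mb and Trdn at least 1 probe set followed the tumours while another stayed flat: the brightest Sln probe set ranged over 5.57 and the other over 0.41, and for Mb the ranges were 5.79 and 0.34. Neither flat probe set of this pair exceeded 6.75 in any tumour. The annotation also holds 2 probe sets shared by Myh7 and Myh6, the cardiac heavy chain, which were left out.

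Of 6 tested calcium handling genes, 4 were higher in Bptf KD 1 than in control 1, beside 26 of the 34 tested members. Sln, sarcolipin, a small inhibitor of the SERCA pumps, had log2 levels of 5.53, 10.35 and 4.78 in the controls and 8.64, 4.93 and 6.23 in the Bptf KD tumours. Pvalb, parvalbumin, the calcium buffer of fast fibres, had 9.17, 11.56 and 6.36 against 7.80, 6.46 and 6.31. Bptf KD 1 lay above control 1 for Sln and below it for Pvalb, although both genes peaked in the tumour labelled control 2. Trdn, triadin, which anchors the calcium store to the release channel, read 6.68, 9.54 and 4.68 against 7.35, 5.40 and 5.51. Atp2a1, the fast pump SERCA1, read 7.76, 10.09 and 6.40 against 7.89, 6.70 and 6.83. Casq2, the slow and cardiac calsequestrin that binds calcium in the store, ranged least, at 5.98, 7.61 and 6.05 against 6.66, 6.23 and 5.93, while Casq1, its fast counterpart, ranged over 2.41. The only Casq2 probe set carries the suffix s_at, which marks probes shared with other transcripts. Ryr1, the release channel, and Cacng1, a subunit of the muscle calcium channel, had means below the dim level. Ryr1 was highest in Bptf KD 1, at 6.66, and next in the tumour labelled control 2, at 6.14.

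Most energy genes followed the same tumours, over unequal ranges. Ckm, muscle creatine kinase, had log2 levels of 9.03, 12.85 and 5.97 in the controls and 9.74, 6.21 and 7.57 in the Bptf KD tumours. Mb, myoglobin, the oxygen store of muscle, had 8.12, 11.92 and 6.13 against 9.80, 6.42 and 7.21. Both had the tumour labelled control 2 first, Bptf KD 1 next and control 1 after it. Pgam2, the muscle phosphoglycerate mutase of glycolysis, read 7.03, 9.28 and 6.56 against 7.20, 6.29 and 6.59, and Cox6a2, a muscle subunit of cytochrome oxidase, 7.64, 9.35 and 6.42 against 7.76, 6.40 and 6.53. Eno3, beta-enolase, ranged least, at 10.41, 12.15 and 10.85 against 10.89, 10.60 and 10.72. Cox7a1, which brown fat also makes, ranged over 2.07 and did not keep the order. Bptf KD 2 was second, at 6.90, above control 1 at 6.86 and Bptf KD 1 at 6.71. Ckmt2, the mitochondrial creatine kinase, and Pygm, muscle glycogen phosphorylase, had means below the dim level. Ckmt2 read 8.15 in the tumour labelled control 2 and 3.80 to 4.88 in the others, Bptf KD 1 included at 4.47.

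Among the regulators, Asb5, an ankyrin repeat and SOCS box protein made in muscle, had log2 levels of 5.71, 11.09 and 4.49 in the controls and 8.29, 4.56 and 5.53 in the Bptf KD tumours. In the tumour labelled control 2 it exceeded the average of controls 1 and 3 by 63.6-fold, the largest such difference of the 46 members. Myf6, the myogenic factor of mature fibres, read 4.93, 8.61 and 4.28 against 6.82, 4.34 and 4.79. Myod1, the myogenic factor MyoD, stayed between 5.35 and 5.69 in the 6 tumours, below the dim level. These family members differed, with Myf6 ranging over 4.33 and Myod1 over 0.34.

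Control 1 and Bptf KD 1 had mean muscle levels of 7.93 and 8.51, and the members differed between them by unequal amounts. Of the 46 members, 36 were higher in Bptf KD 1, 9 in control 1 and 1 was equal. Among the 34 tested, 26 were higher in Bptf KD 1, beside 4984 of the 9249 genes tested. At least 2-fold higher in Bptf KD 1 were 11 of them, 7 of these among the 34 tested, against 0.962% of genes tested. Sln led at 8.63-fold, followed by Asb5 at 5.98-fold, Smpx at 3.94-fold, Myf6 at 3.71-fold and Mb at 3.20-fold. In the other direction Pvalb was the 1 member at least 2-fold higher in control 1, at 2.58-fold, against 2.02% of genes tested. Myoz1 and Myh4 followed, at 1.56-fold and 1.43-fold. The contrast sets 1 tumour against 1 and has no test.

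**Figure D3:**
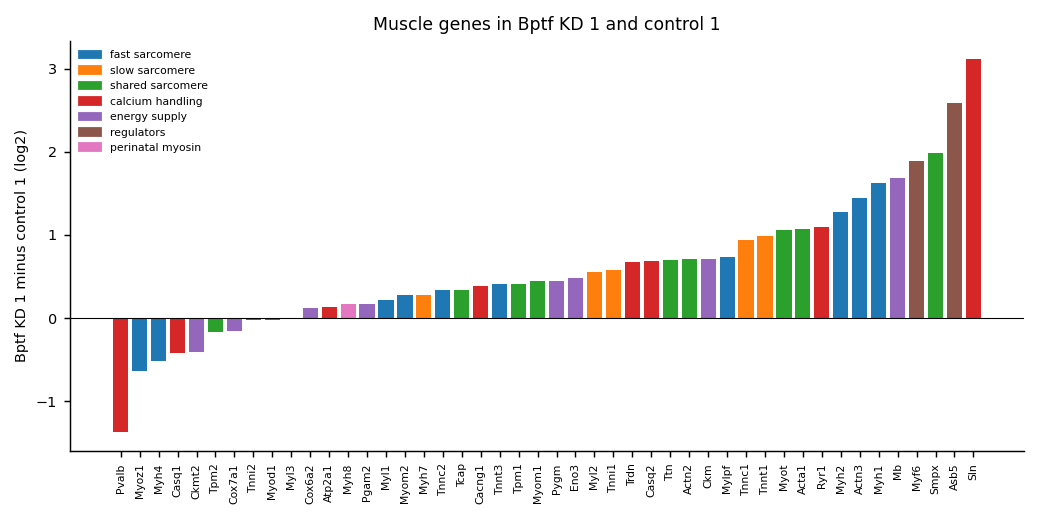
Difference in level (log2) between Bptf KD 1 and control 1 for each of the 46 members with a probe set, sorted and coloured by role. Bars run from -1.37 for Pvalb to 3.11 for Sln.

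Whether muscle genes differ when the tumour cells have less Bptf is the question put by the 2 groups. In limma, 0 of the 34 tested members passed the threshold of 0.05 after Benjamini-Hochberg adjustment over all 9249 genes, against 0.811% of genes tested (0.66% lower and 0.151% higher). At an unadjusted p under 0.05 there were 0 of the 34 as well, against 13.5% of genes. The adjusted p of the 34 ran from 0.511 to 0.981. Tumours of the groups overlapped for 34 of 34 members, where 20% of genes tested did not overlap (8.17% lower). Differences were negative for 33 of 34, against 40.4% of genes, with a median of -0.94 beside 0.06 over all genes tested. The tumour labelled control 2 counts among the controls here and was the highest for 33 of the 34. Without it 16 were negative and 18 positive, with a median of 0.06. In that fit limma again called 0 of 34 members, beside 412 of the 9249 genes tested. Its unadjusted p fell below 0.05 for 0 of the 34 and for 2501 of the 9249. Array weights gave that tumour the lowest weight and control 3, at the foot of the muscle levels, the highest (4.00). With these weights 30 of 34 were positive and 0 were called, against 1680 of the 9249 genes tested.

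Among the fast genes the median difference was -1.44 and 9 of 9 were negative. Myl1 had a mean of 10.00 ± 3.62 in controls and 8.19 ± 2.55 in Bptf KD tumours (SD, n = 3 each), a difference of -1.81 (SE 1.96) with a limma adjusted p of 0.760. Mylpf had 9.74 ± 3.28 and 8.08 ± 2.39, a difference of -1.66 (SE 1.79; limma adjusted p = 0.759). The spread within either group was larger than the difference between them. Without the tumour labelled control 2 these differences were -0.14 and -0.02, and the fast median was -0.14.

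The slow genes had a median of -0.42, with 6 of 6 negative. Myl2 differed by -0.94 (SE 0.84; limma adjusted p = 0.700), from 7.01 ± 1.65 to 6.07 ± 0.89, and Tnnc1 by -0.56 (SE 0.76; limma adjusted p = 0.817), from 7.45 ± 1.60 to 6.89 ± 0.55 (SD, n = 3 each). Without the tumour labelled control 2 the slow median was 0.14, and Tnnc1 turned to 0.37 while Myl2 was -0.025.

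The shared sarcomere genes had a median of -1.03, with 5 of 6 negative. Acta1 differed by -1.27 (SE 1.76; limma adjusted p = 0.820), from 10.24 ± 3.05 to 8.97 ± 2.55, and Smpx by -1.09 (SE 1.70; limma adjusted p = 0.838), from 6.89 ± 3.15 to 5.79 ± 2.21 (SD, n = 3 each). Without the tumour labelled control 2 both turned positive, to 0.22 and 0.62, and the median was 0.17. Tpm1, the 1 tested member with a positive difference, differed by 0.097 (SE 0.14; limma adjusted p = 0.820). Its sign was negative with the mean of its probe sets (-0.11) and with the probe set of largest SD (-0.45).

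Calcium handling had a median of -0.83, with 6 of 6 negative. Pvalb had the largest difference of the 34 members, -2.17 (SE 1.21), from 9.03 ± 2.60 to 6.86 ± 0.82 (SD, n = 3 each), and the smallest limma adjusted p, 0.511. It stayed negative without the tumour labelled control 2, at -0.91. Sln differed by -0.29 (SE 1.57; limma adjusted p = 0.962), from 6.89 ± 3.02 to 6.60 ± 1.88, and turned to 1.45 without that tumour. The calcium median was then 0.16.

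Energy genes had a median of -0.91, with 6 of 6 negative. Ckm differed by -1.44 (SE 1.71; limma adjusted p = 0.786), from 9.28 ± 3.45 to 7.84 ± 1.78, and Mb by -0.91 (SE 1.52; limma adjusted p = 0.849), from 8.72 ± 2.94 to 7.81 ± 1.77 (SD, n = 3 each). Both turned positive without the tumour labelled control 2, to 0.34 and 0.69, and the median was 0.083. Asb5 of the regulators differed by -0.97 (SE 1.77; limma adjusted p = 0.863), from 7.10 ± 3.51 to 6.13 ± 1.94 (SD, n = 3 each), and by 1.03 without that tumour.

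**Figure D4:**
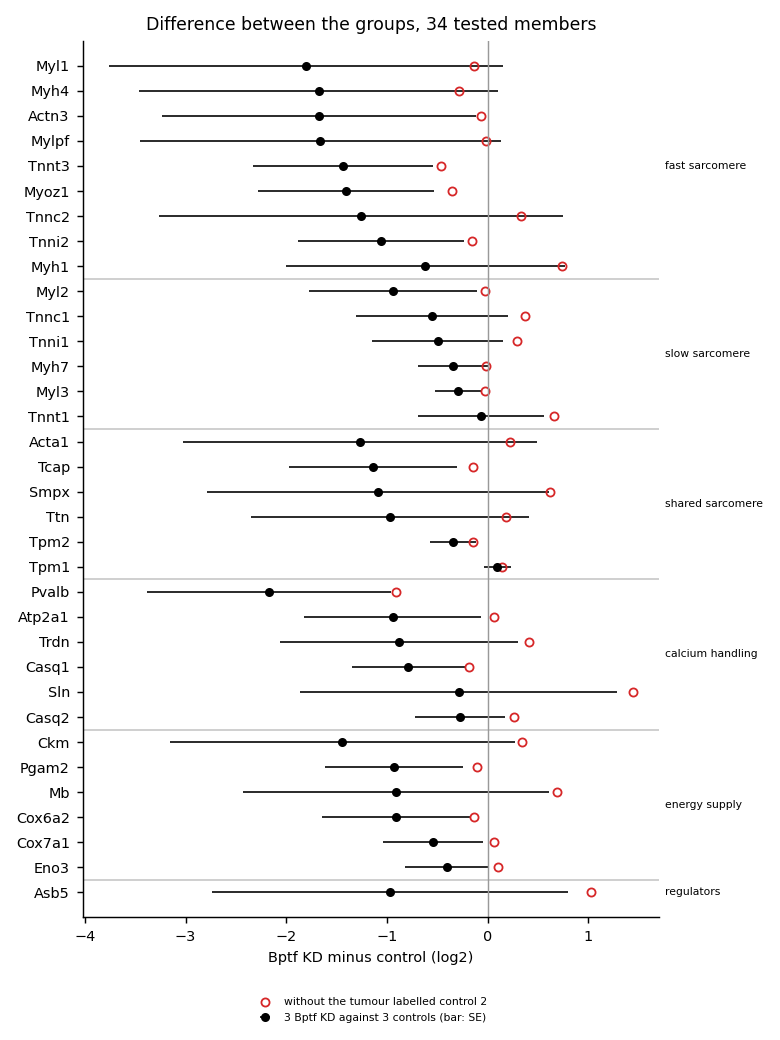
Bptf KD minus control (log2) for the 34 tested members by role, filled points with bars for the standard error from limma with all 6 tumours, open points without the tumour labelled control 2. With all tumours 33 of the 34 points lie left of 0, and without that tumour 16 do.

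Muscle genes outside the set followed the same tumours in part, and most over smaller ranges. Of 68 other muscle genes listed, 47 had a probe set and 26 were tested. Limma called 0 of them, against 0.811% of genes tested. At an unadjusted p under 0.05 there were 2 lower and 0 higher, beside 538 lower and 708 higher of the 9249 genes tested. The median difference was -0.17, with 24 of 26 negative. Without the tumour labelled control 2 the median was 0.045 and 8 were negative. That tumour was the highest for 22 of the 26, and 12 exceeded the average of controls 1 and 3 by 2-fold or more there, against 3.09% of all genes and 30 of the 34 members. The median range of the 26 was 0.88, against 0.62 over all genes tested and 3.75 for the members, and the smallest was 0.30. For 6 of the 26 the order began with the tumour labelled control 2, Bptf KD 1 and control 1, against 19 of the 34 members. Tmod4, which caps thin filaments in skeletal muscle, ranged most, with log2 levels of 6.67, 9.85 and 5.36 in the controls and 7.01, 5.67 and 6.09 in the Bptf KD tumours. Pdlim3, a Z-disc protein, read 6.24, 9.48 and 5.53 against 8.47, 5.86 and 6.26, and Ankrd2, a stretch-responsive ankyrin protein, 6.38, 9.42 and 6.19 against 7.71, 6.37 and 6.47. In Myl4, the atrial and embryonic light chain, the tumour labelled control 2 and Bptf KD 1 stood apart together, at 9.34 and 8.92 against 6.24 to 6.56 in the others.

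The smallest p-values of these other genes belonged to small differences. Eef1a2, the translation elongation factor of muscle and neurons, differed by -0.39 (SE 0.14; limma adjusted p = 0.297), and Slc2a4, the insulin-regulated glucose transporter of muscle and fat, by -0.40 (SE 0.16; limma adjusted p = 0.346). Ldhb, a lactate dehydrogenase subunit, differed by -0.23 (limma adjusted p = 0.459) and Fbxo32, a ubiquitin ligase of muscle wasting, by 0.37 (limma adjusted p = 0.554). Eef1a2, Slc2a4 and Ldhb were the 3 of the 26 whose groups did not overlap, all lower, where 8.17% of all genes tested did not overlap and were lower. That share is near the background.

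The 10 tested non-members whose profile over the 6 tumours lay closest to the mean profile of the members, by root mean square distance of centred log2 values, were Tmod4 (0.32), Pdk4 (0.39), Cox8b (0.41), Asb11 (0.42), Des (0.49), Pdlim3 (0.49), Ankrd2 (0.50), Ndrg2 (0.58), Thbs4 (0.62) and Ly6d (0.63). The median distance over the 9215 non-members was 1.41. Of the 10, Tmod4, Des, Pdlim3 and Ankrd2 were on the list of other muscle genes. Ly6d, a marker of stratified epithelia, is not a muscle gene: it read 10.04 in the tumour labelled control 2 and 6.52 to 7.32 in the others.

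The label of skeletal muscle was checked against heart and smooth muscle. The heart genes Myh6, Nppa, Tnni3 and Myl7 did not exceed 5.45 in any tumour, below the dim level, and 8 of the 12 heart genes had means below it. The mean of the 4 tested heart genes was nevertheless highest in the tumour labelled control 2, at 8.19 against 7.47 to 7.99 in the others. Among them the natriuretic peptide gene Nppb, read 7.28 there and 5.82 to 6.64 in the others. Tnnt2, on the same list, was bright in all 6 tumours, from 10.98 to 12.36, and was lowest in control 1. Smooth muscle genes did not follow the muscle order. The mean of the 9 tested was 8.50, 8.23 and 8.54 in the controls and 8.42, 8.40 and 8.58 in the Bptf KD tumours, so that the tumour labelled control 2 was the lowest, and 2 of the 9 were highest there. Of the 8 neuromuscular junction genes, 3 were tested, and 0 of these were highest in that tumour. Of the other 5, below the dim level, the acetylcholine receptor subunit Chrna1 did follow the muscle order, at 6.14 in the tumour labelled control 2, 5.99 in Bptf KD 1 and 4.97 to 5.22 in the others. Colq, the collagen tail of acetylcholinesterase, was also highest there, at 5.28 against 4.77 to 5.12.

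Markers of other tissue moved with the muscle genes in the tumour labelled control 2. The mean of 5 tested keratinocyte genes was 9.65 there, against 6.85 and 7.08 in the other controls and 7.14 to 7.24 under Bptf KD, and of the 10 with a probe set 9 lay above the dim level there and 4 or 5 elsewhere. The cornified envelope gene Flg read 10.21 there and 3.23 to 3.40 in the others. Bptf KD 1, second in muscle, had a keratinocyte mean of 7.18. The mean of 10 tested adipocyte genes lay between 9.69 and 10.55 in controls against 6.84 to 7.77 under Bptf KD, and that of 11 fibroblast and matrix genes between 11.7 and 11.9 against 10.5 to 10.8. In these lists 6 and 5 genes were called lower by limma, against 0.66% of genes tested. The adipocyte mean was lowest in Bptf KD 1, where muscle was high. It was highest in the tumour labelled control 2, where muscle was highest too, at 10.55 against 9.97 and 9.69 in controls 1 and 3. There 10 of the 10 adipocyte genes were at their highest, against 28.3% of genes tested. Means of the endothelial (8 genes, 7.16 to 7.71), macrophage (8 genes, 11.8 to 12.3), neutrophil (4 genes, 8.16 to 9.06), epithelial tumour (8 genes, 10.3 to 11.5) and peripheral nerve lists (4 genes, 8.45 to 9.10) varied by less than the muscle mean over the 6 tumours. The part of these other tissues in the muscle differences was not tested.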

How the data were processed

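RNA of 6 tumours was hybridised to 1 Affymetrix expression array each. The authors deposited values made with RMA, per the submitters' processing notes, without a version of the tool. RMA subtracts background, equalises the arrays by quantiles and sums up the probes of a set. The scale of the deposited values is not stated and was taken as log2 from their range, 2.98 to 15.17. Probe sets were named from GEO's platform annotation, 20380 of 22690 with exactly 1 gene, and symbols were matched by Entrez identifier to RefSeq (20351 matched, 0 changed). The probe set with the highest mean stood for a gene, and means in the lowest 30% (below 6.09) were left out, which left 9249 genes and 34 of 46 members. The nearest members outside that limit were Pygm (5.85) and Myom1 (6.04), and the nearest inside Smpx (6.34) and Myh7 (6.41). A member can pass through 1 tumour where it is high.

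Groups were compared in limma 3.58.1 (R 4.3.3; lmFit, then eBayes) without covariates, with Benjamini-Hochberg adjustment over all genes tested. The procedure was tested on simulated data. The number of arrays limits the precision. The members and lists were chosen with earlier results of these data known. Named members are the 4 with the widest range and the 1 with the narrowest in each role group, the perinatal myosin and the regulators, and of the other muscle genes the 4 with the widest range and the 4 with the smallest p. The 10 nearest profiles and Bptf were added, and other genes were chosen after their values were seen. Alternatives were the filter, the choice of probe set, the scaling of arrays, the variance model, array weights, a replicate block and leaving out each tumour. Promoters are RefSeq's, from GRCm38.p6.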

Additional observations from a re-analysis of the deposited data

How the results depend on the processing

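Over all genes tested 75 were called, 42 with the lowest 50% of probe set means left out, 1680 with array weights, whose estimation stopped short of convergence, and 0 to 412 when 1 tumour was left out. Leaving out the tumour labelled control 2 gave 412 and control 3 gave 10. Leaving out Bptf KD 1, 2 or 3 gave 2, 6 or 0. Of the members, limma called 0 under each of the 15 alternatives. Same-numbered tumours of the groups were correlated in their deviations from the group means at 0.0055, 0.28 and 0.37 over genes. Differently numbered tumours ran from -0.44 to 0.35, and for controls 2 and 3 the same-numbered value was the highest. These values do not decide whether the numbers pair the tumours, and the main fit did not pair them. The replicate number as a block gave 0 of 34 too, with a smallest adjusted p of 0.349, a median of -0.94 and 107 calls over all genes, and it changed no call among the members. Without control 3, 7 of the 34 reached an unadjusted p under 0.05, beside 799 of the 9249 genes tested. With array weights 2 of the 34 did, beside 3291 genes, and without control 1 it was 1, beside 1308 genes. Of the other muscle genes array weights called 1, Fbxo32 (0.68, adjusted p = 0.0385), and the remaining alternatives 0. The tumour labelled control 2 was highest for 13 of the 14 members left by the stricter filter. That filter left no slow gene, so the slow median could not be computed there.

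Array weights gave the tumour labelled control 2 the lowest weight (0.150), control 3 the highest (4.00) and Bptf KD 1 the next highest (1.98). They turned the median of the fast genes to 1.50, of the slow to 0.45 and of the shared to 0.85. The calcium median turned to 0.43, the energy median to 0.28, that of all members to 0.48 and that of other muscle genes to 0.10. The weights also turned Myl1 to 1.79, Mylpf to 1.50, Myl2 to 0.42, Tnnc1 to 0.47, Acta1 to 1.78 and Smpx to 1.72. Sln turned to 2.03, Pvalb to 0.11, Ckm to 1.65, Mb to 1.66 and Asb5 to 1.76. Tpm1 turned to -0.11 with the mean of probe sets and to -0.45 with the probe set of largest SD. Leaving out each tumour in turn gave a median over members from -1.78 without control 3 to 0.06 without the tumour labelled control 2. The same range was -2.88 to -0.14 for fast, -0.80 to 0.14 for slow, -2.05 to 0.17 for shared, -1.59 to 0.16 for calcium, -1.53 to 0.083 for energy and -0.35 to 0.045 for other muscle genes. For single members it was -1.05 to 0.37 for Tnnc1, -2.83 to 0.22 for Acta1, -2.47 to 0.62 for Smpx, -1.34 to 1.45 for Sln, -3.10 to 0.34 for Ckm, -2.21 to 0.69 for Mb and -2.27 to 1.03 for Asb5. Without Bptf KD 2, Acta1 was 0.045 and Sln 0.55. For the 12 members whose difference is given, adjusted p ran from 0.161 to 0.998 over the alternatives. The cause of these changes was not tested.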
